A study of Mus musculus with 4 samples.

Results

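The insulin-like growth factor (IGF) genes were followed across 4 treatments of cultures labelled mouse synovial fibroblasts, which are cells of the joint lining. They are the ligand genes Igf1 and Igf2, the receptor gene Igf1r, the adaptor genes Irs1 and Irs2, and the binding protein genes Igfbp3, Igfbp4, Igfbp5, Igfbp6 and Igfbp7. A probe set was taken where the platform annotation names exactly 1 of these symbols, which gave 22 probe sets for the 10 genes, out of 12393 genes named on the array. The cells had been taken out of knees of untreated male DBA/1J mice aged 8 to 12 weeks, were passaged 3 to 4 times and were held in medium with 1% serum. All groups share this strain, sex and culture. The treatments, each for 6 h, were IL-1β with indomethacin and iloprost, IL-1β with indomethacin, IL-1β alone, and vehicle, with IL-1β at 5 ng/ml and each drug at 1 µM. IL-1β is an inflammatory cytokine of the joint, indomethacin blocks the cyclooxygenases that make prostanoids, and iloprost stands in for prostacyclin, one of these prostanoids, at its receptor. Each treatment was measured on 1 Affymetrix array, so there is no replicate, no test between treatments and no error between dishes. The labels do not say how many mice gave the cells.

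IGF-I and IGF-II bind the receptor tyrosine kinase encoded by Igf1r, which passes the signal through the IRS adaptors to PI3-kinase and AKT, a route shared with the insulin receptor. The binding proteins hold the ligands outside the cell and either block or prolong their action, and proteases such as pregnancy-associated plasma protein A (PAPP-A) cut the binding proteins and free the ligand. In joints IGF-I is known for driving cartilage matrix synthesis, and in rat osteoblasts prostaglandin E2 is known to raise Igf1 transcription through cAMP.

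Values are the deposited linear signals. The floor, below which a signal was treated as unmeasured, was 37.6, the 50th percentile of all signals on the 4 arrays. Each log2 ratio was taken relative to the median gene, because the arrays differ in brightness. On the log2 scale the median gene stood at 0.23 for IL-1β over vehicle, at -0.15 for indomethacin with IL-1β over IL-1β alone, and at 0.01 for iloprost added to both. As a yardstick, the log2 ratios of probe sets of the same gene had an SD per probe set of 0.20 to 0.22 over the 6 comparisons. It was 0.25 to 0.27 for probe sets with a mean signal under 113.2, the 70th percentile, and 0.16 to 0.18 for brighter ones. This spread is within an array and leaves out differences between dishes. As a check of the IL-1β response, Il6, an inflammatory cytokine gene, had a signal of 4757 with IL-1β and 312 with vehicle. Of 20 fibroblast markers 19 were above the floor on all 4 arrays. Of 24 macrophage markers 24 were too, so markers of another cell type than the labelled one were present on every array, while 0 of 9 lymphocyte, 1 of 13 endothelial, 2 of 12 chondrocyte and 2 of 8 adipocyte markers were. Scaled to the median gene, the summed macrophage markers were above the summed fibroblast markers with vehicle (47431 and 41389), IL-1β and indomethacin. With iloprost they were below them (40774 and 41780). Such sums give no share of cells, and the signals are those of the whole culture.

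Of the 10 genes, 6 were above the floor on all 4 arrays, namely Igf1, Igf1r, Irs1, Igfbp4, Igfbp6 and Igfbp7, and Igfbp3 was above it on all but the iloprost array. Igf2, Irs2 and Igfbp5 lay below it on every array. Irs1 and Igfbp3 were the members that differed by at least 2-fold in any comparison. Irs1 was lower with IL-1β than with vehicle and higher when indomethacin was added. Igfbp3 was highest with IL-1β and indomethacin, and lowest when iloprost was added to them. Igf1, Igfbp4, Igfbp6 and Igfbp7 moved by less than 2-fold throughout.

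**Figure D1:**
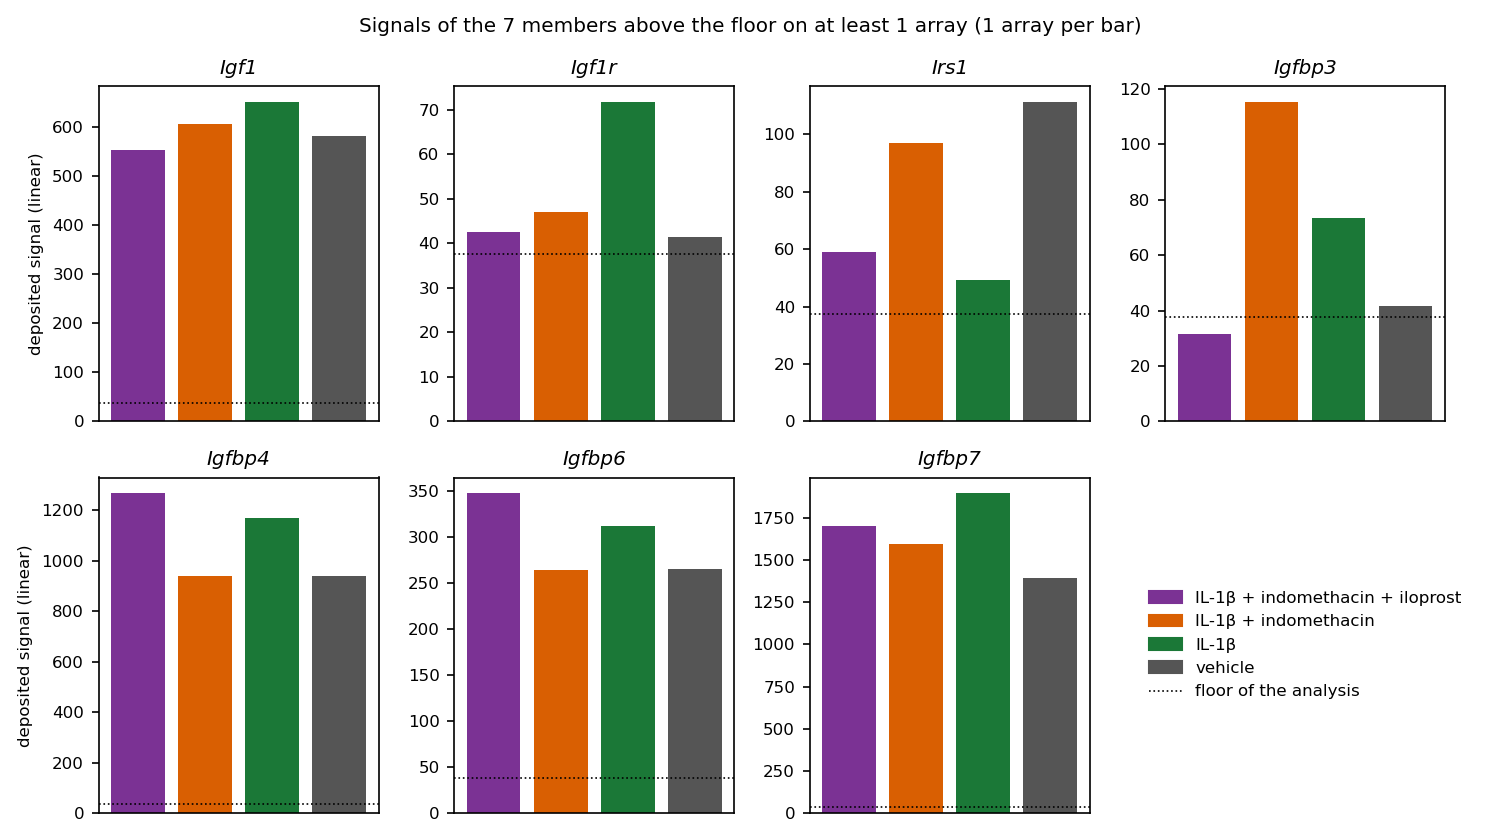
Deposited linear signal (y axis, from 0, a scale of its own for each gene) of the probe set used for each of the 7 members that were above the floor on at least 1 array. Each bar is 1 array, in the order IL-1β with indomethacin and iloprost, IL-1β with indomethacin, IL-1β and vehicle, the dotted line is the floor of 37.6, and there are no error bars because each treatment has 1 array. Irs1 is low on the iloprost (59.2) and IL-1β (49.2) arrays and high on the other two, and Igfbp3 peaks at 115.2 with IL-1β and indomethacin.

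The promoters of the genes that the results turn on are shown first, with Irs2 beside its relative Irs1. The windows are RefSeq sequence of build GRCm38.p6, 250 bases before to 50 after the start site, on the gene's strand. All 10 members matched, with 13 windows because Igf2 has several starts. Capitals mark any of 6 motifs searched on both strands. These were the cAMP response element (CRE) TGACGTCA, its half-site TGACG, the E-box CACGTG, the AP-1 site TGANTCA, the NF-κB consensus and TATAAA. The CRE half-site lies inside the full CRE.
Irs1 (chr1:82291390-82291689, minus strand): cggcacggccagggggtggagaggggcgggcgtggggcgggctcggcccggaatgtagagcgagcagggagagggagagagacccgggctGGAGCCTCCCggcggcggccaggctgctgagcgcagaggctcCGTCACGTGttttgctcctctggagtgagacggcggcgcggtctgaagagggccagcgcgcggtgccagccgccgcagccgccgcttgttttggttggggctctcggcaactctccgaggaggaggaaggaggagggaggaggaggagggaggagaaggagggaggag
Irs2 (chr8:11008880-11009179, minus strand): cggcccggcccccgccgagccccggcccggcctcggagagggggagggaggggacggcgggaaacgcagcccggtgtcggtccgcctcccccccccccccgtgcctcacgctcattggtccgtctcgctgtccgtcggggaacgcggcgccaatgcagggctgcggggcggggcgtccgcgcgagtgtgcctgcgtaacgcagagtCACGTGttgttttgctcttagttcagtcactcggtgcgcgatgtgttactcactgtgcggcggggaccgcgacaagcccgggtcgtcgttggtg
Igfbp3 (chr11:7213874-7214173, minus strand): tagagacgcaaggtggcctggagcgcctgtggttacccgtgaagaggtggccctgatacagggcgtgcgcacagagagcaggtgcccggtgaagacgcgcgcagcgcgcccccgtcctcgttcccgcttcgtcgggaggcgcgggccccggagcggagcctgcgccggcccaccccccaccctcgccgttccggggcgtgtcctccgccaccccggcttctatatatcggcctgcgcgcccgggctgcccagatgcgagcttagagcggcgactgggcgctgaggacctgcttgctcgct
Igfbp4 (chr11:99040994-99041293, plus strand): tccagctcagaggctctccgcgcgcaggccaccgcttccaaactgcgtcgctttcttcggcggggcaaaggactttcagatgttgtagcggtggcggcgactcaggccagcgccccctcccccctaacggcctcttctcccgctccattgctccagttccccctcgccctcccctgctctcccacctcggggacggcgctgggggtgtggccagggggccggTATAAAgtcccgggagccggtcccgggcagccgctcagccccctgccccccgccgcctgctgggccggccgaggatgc

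The Irs1 window held an NF-κB consensus match, and 1 CRE half-site that overlaps an E-box. The Irs2 window held 1 E-box and the Igfbp4 window TATAAA, whose first base is 28 bases before the start site. None of the 6 motifs was found in the Igfbp3 window. The full CRE was in 0 of the 13 member windows and in 1.79% of all 32851 promoter windows. The half-site was in 3 of 13 against 20.8% of all, the E-box in 2 against 7.15%, the AP-1 site in 1 against 7.81%, the NF-κB consensus in 2 against 8.46%, and TATAAA in 2 against 13.6%. The Irs1 and Irs2 windows share 2 stretches of 10 bases, GTCACGTGTT, which holds the E-box, and TGTTTTGCTC. They are the stretches of at least 10 bases that these windows have in common on the gene's strand. These matches describe the letters of these windows and do not show that a factor binds there.

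The ligand gene Igf1 was measured by 3 probe sets, all above the floor on every array. The probe set with the highest mean signal had 553.5 with IL-1β, indomethacin and iloprost, 606.4 with IL-1β and indomethacin, 650.5 with IL-1β and 581.8 with vehicle. A second gave 344.7 with iloprost added, 499.1 with indomethacin, 597.3 with IL-1β and 533.6 with vehicle. The third gave 266.7, 364.3, 359.2 and 326.9 in the same order. On each of the 3 the iloprost array was the lowest of the 4. The log2 ratio of IL-1β over vehicle lay between -0.09 and -0.06 on the 3 probe sets, and that of indomethacin with IL-1β over IL-1β alone between -0.11 and 0.17. Against the spread between bright probe sets, 0.18 for IL-1β and 0.16 for indomethacin, only the 0.17 of the third probe set lay above it. With iloprost added to IL-1β and indomethacin the ratios were -0.14, -0.54 and -0.46. The first of these is within that spread and the other two are beyond it, so the size of the Igf1 difference with iloprost depends on the probe set. As deposited, the IL-1β ratio of the probe set used turned to 0.16.

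Macrophages also make IGF-I, and most of the macrophage markers were lower with iloprost. The median log2 ratio of the 24 markers with iloprost over IL-1β and indomethacin was -0.23, against 0.04 over all genes. Of them 18 were below the median gene and 6 above it, the latter including Fcgr3 at 0.79 and Cd14 at 0.62. Each marker was read from its brightest probe set, and probe sets of a marker could differ. Csf1r counted as below at -0.07, while its other probe sets were at 0.48 and 0.55. The C1qb probe sets were all below, from -0.40 to -0.19. The Fc receptor gene Fcgr1 was the 1 of 24 at least 2-fold lower. Among all genes 3.19% were lower by 2-fold, so that the count of 1 is near the background. The summed signals of the 24 markers, scaled to the median gene, were 40774 with iloprost, 44534 with IL-1β and indomethacin, 46957 with IL-1β and 47431 with vehicle. Fewer cells of a type and less RNA per cell cannot be told apart in such dishes, and the part of the macrophages in the Igf1 values was not tested. The other ligand gene, Igf2, had signals from 0.8 to 3.3 on 1 probe set and from 2.3 to 24.6 on the other, all below the floor, and has no ratio.

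The receptor gene Igf1r was near the floor. Its signals were 42.5 with iloprost added, 47.1 with IL-1β and indomethacin, 71.8 with IL-1β and 41.4 with vehicle, so the IL-1β array stood above the other three. The log2 ratio was 0.57 for IL-1β over vehicle, and -0.46 for indomethacin with IL-1β over IL-1β alone. It was -0.16 when iloprost was added to both, and -0.62 for that array over IL-1β alone. The first, second and last of these share the IL-1β array. A second Igf1r probe set was below the floor on every array, with signals from 1.1 to 9.3, so the value rests on 1 probe set.

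Irs1, the adaptor that links the IGF-I and insulin receptors to PI3-kinase, had a signal of 59.2 with IL-1β, indomethacin and iloprost, 97.1 with IL-1β and indomethacin, 49.2 with IL-1β and 111.3 with vehicle. The IL-1β and iloprost arrays were the low ones and the vehicle and indomethacin arrays the high ones. IL-1β over vehicle gave a log2 ratio of -1.40, a 2.65-fold lower signal, the fourth lowest ratio of the 6964 genes measured. Indomethacin with IL-1β over IL-1β alone gave 1.13, or 2.19-fold higher, and 10 of 6932 genes had a higher ratio. In both ranks a ratio with 1 array at the floor is a bound, so such genes may differ by more. Both Irs1 ratios share the IL-1β array. Between arrays other than that one, IL-1β and indomethacin over vehicle was at -0.28, and iloprost added to IL-1β and indomethacin was at -0.72, a 1.65-fold lower signal that does not reach 2-fold. The iloprost array was at -0.997 against vehicle, just inside 2-fold, and at 0.41 against IL-1β alone. As deposited, the ratio of IL-1β over vehicle was -1.18, and that of indomethacin 0.98, so that it no longer reached 2-fold.

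Ordered by level, the Irs1 arrays were IL-1β, iloprost, indomethacin and vehicle, lowest first. The neighbours in this order differed least at its ends, by 0.41 (iloprost over IL-1β) and -0.28 (indomethacin over vehicle), against a spread of 0.25 to 0.27 between dim probe sets of 1 gene. Irs1 has a single probe set on this array, so no other value of the gene can be set beside it. Irs2, the paralogue with a similar role and a known CREB target in pancreatic islets, also has 1 probe set, and its signals of 0.9 to 2.9 were all below the floor.

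The genes whose pattern over the 4 arrays was nearest to that of Irs1 were Kitl, Calhm5 and Mocos, among 6222 genes above the floor on every array. Likeness was the Euclidean distance between log2 signals, each relative to the gene's own mean over the 4 arrays, and was 0.38, 0.39 and 0.44 for these genes. Kitl, which encodes stem cell factor, had signals of 77.1 with iloprost added, 146.6 with IL-1β and indomethacin, 91.3 with IL-1β and 157.7 with vehicle. Calhm5, a member of the calcium homeostasis modulator family, had 45.0, 74.3, 52.4 and 96.6 in the same order. Mocos, the molybdenum cofactor sulfurase gene, had 88.6, 128.3, 65 and 110.3. All of them were low on the same pair of arrays as Irs1, which follows from how they were chosen. The pattern search ran over Irs1 alone, since no other member above the floor on every array varied by 2-fold.

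Igfbp3 encodes the main carrier of IGF-I in blood, which also acts at the cell surface. Its 1 probe set had signals of 31.5 with IL-1β, indomethacin and iloprost, 115.2 with IL-1β and indomethacin, 73.3 with IL-1β and 41.8 with vehicle. The iloprost array was below the floor, the vehicle array just above it and the indomethacin array the highest. Iloprost added to IL-1β and indomethacin gave a log2 ratio of at most -1.62, at least 3.08-fold lower. IL-1β over vehicle was at 0.58 and indomethacin with IL-1β over IL-1β alone at 0.80, each under 2-fold, while IL-1β and indomethacin over vehicle was at 1.38, or 2.61-fold higher. Against IL-1β alone the iloprost array was at most at -0.82. The pattern is thus unlike that of Irs1 in the first step, where IL-1β gave a higher Igfbp3 signal and a lower Irs1 signal, and like it in the other steps, higher with indomethacin and lower with iloprost.

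Igfbp4, which mostly blocks IGF action until it is cut, was measured by 6 probe sets that were above the floor on every array. The probe set with the highest mean signal had 1266 with IL-1β, indomethacin and iloprost, 941 with IL-1β and indomethacin, 1168 with IL-1β and 938 with vehicle. The dimmest had 101.1, 55.7, 86.6 and 58.5 in the same order. Iloprost added to IL-1β and indomethacin gave a higher signal on 6 of 6 probe sets, with log2 ratios from 0.42 to 0.85 and a median of 0.46. Against IL-1β alone the iloprost array was also higher on 6 of 6, from 0.26 to 0.59. Indomethacin with IL-1β over IL-1β alone was lower on 5 of 6 probe sets, from -0.49 to 0.18. IL-1β over vehicle was higher on 3 and lower on 3, from -0.47 to 0.34. No probe set reached 2-fold, and probe sets of 1 gene read the same dish and are not replicates of it. Of the 6 probe sets, 3 are of the types that Affymetrix marks as able to bind other transcripts too.

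**Figure D2:**
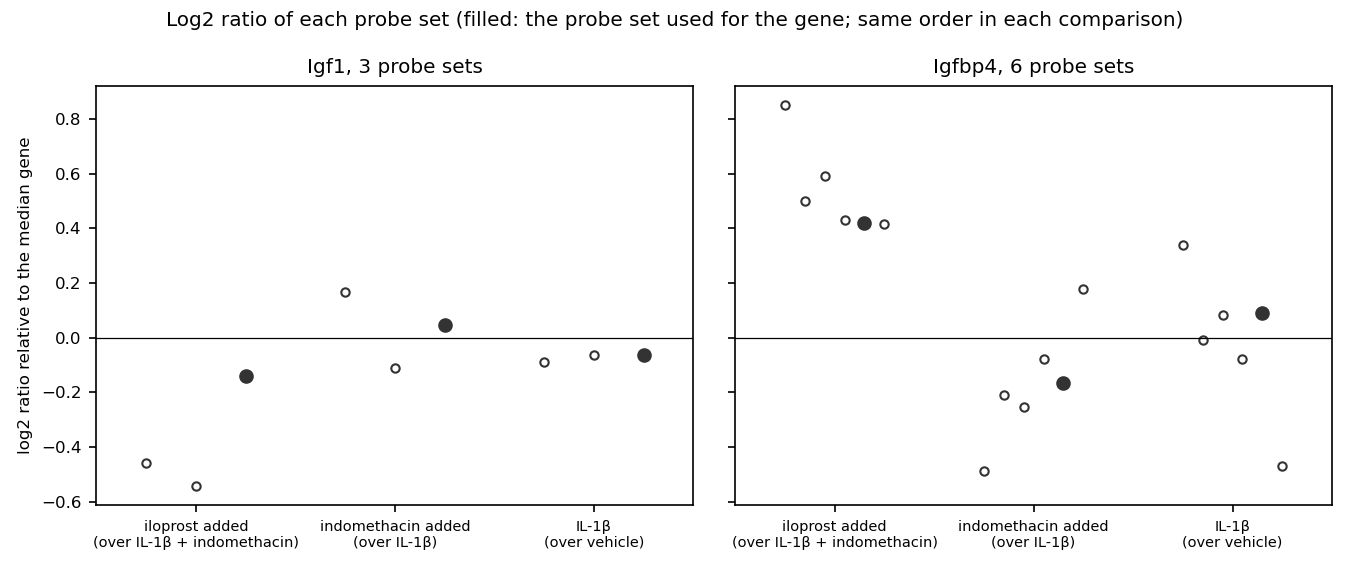
Log2 ratio relative to the median gene (y axis) of each of the 3 probe sets of Igf1 and the 6 of Igfbp4, for iloprost added to IL-1β and indomethacin, indomethacin added to IL-1β, and IL-1β over vehicle. Each point is 1 probe set and the filled point is the one used for the gene. With iloprost the 6 Igfbp4 points lie between 0.42 and 0.85 and the 3 Igf1 points between -0.54 and -0.14, while IL-1β over vehicle leaves the Igfbp4 points on both sides of 0.

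Igfbp6, whose protein prefers IGF-II, had a signal of 347.6 with IL-1β, indomethacin and iloprost, 264.5 with IL-1β and indomethacin, 312.2 with IL-1β and 265.4 with vehicle. Iloprost added to IL-1β and indomethacin gave 0.39, as for Igfbp4 higher by more than the spread between bright probe sets (0.17) and under 2-fold. IL-1β over vehicle was at 0.01 and indomethacin at -0.09. Igfbp7, a matrix protein that binds IGFs weakly, had 1705 with iloprost added, 1595 with IL-1β and indomethacin, 1896 with IL-1β and 1396 with vehicle. With iloprost it stood at 0.09, within the spread between bright probe sets, and it stood at 0.22 for IL-1β over vehicle, which was 0.44 as deposited. Another 2 probe sets of Igfbp7 were below the floor on every array, with signals up to 32.5. Igfbp5, a binding protein that attaches to matrix, had signals of at most 19.0 and 26.5 on its 2 probe sets, all below the floor.

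Counts were read against all genes. With IL-1β over vehicle, 1 of the 7 members measured was at least 2-fold lower, Irs1, and 0 were higher, where 0.56% of all measured genes were lower and 1.72% higher. With indomethacin, 1 of 7 was higher, Irs1, and 0 lower, against 0.245% higher and 0.664% lower among all genes. With iloprost added, 1 of 7 was lower, Igfbp3, and 0 higher, against 3.19% lower and 1.98% higher. With IL-1β and indomethacin over vehicle 1 of 7 was higher, Igfbp3, and 0 lower, against 1.32% and 0.323%. With all 3 agents 0 of 7 passed 2-fold over IL-1β alone (0.95% of genes higher, 2.37% lower) and 0 of 7 over vehicle (2.72% higher, 3.34% lower). A single gene makes up each count. Members were also chosen with earlier results of these data known, so the counts are no independent test. The members' median log2 ratio was 0.09 for IL-1β, -0.09 for indomethacin and -0.14 for iloprost, against -0.02, 0.00 and 0.04 over all genes. The members went both ways, between -1.62 (a bound) and 0.42 with iloprost. Among the 2040 genes above the floor on all arrays with a mean signal under 113.2, to which Irs1 belongs and Igfbp3 does not, since it was below the floor on the iloprost array, 1.03% passed 2-fold either way for IL-1β over vehicle, 0.637% for indomethacin and 2.84% for iloprost. The shares were 1.76% for all 3 agents over IL-1β, 0.882% for IL-1β and indomethacin over vehicle, and 3.14% for all 3 agents over vehicle.

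**Figure D3:**
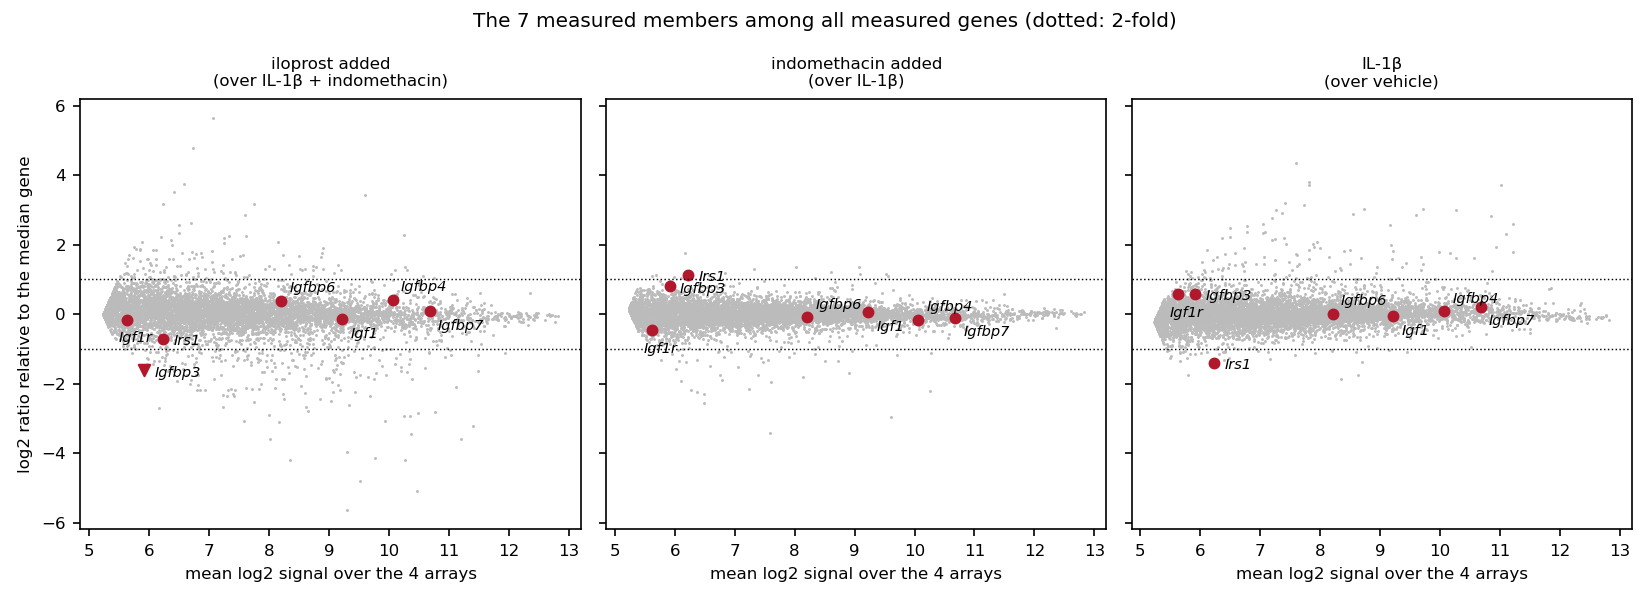
Log2 ratio relative to the median gene (y axis) against the mean log2 signal over the 4 arrays (x axis) for all genes measured in each comparison (grey) and the 7 measured members (red, with names), for iloprost added to IL-1β and indomethacin, indomethacin added to IL-1β, and IL-1β over vehicle. The triangle is a bound and dotted lines mark 2-fold. Irs1 lies beyond 2-fold with IL-1β (-1.40) and with indomethacin (1.13), Igfbp3 with iloprost (at most -1.62), and the brighter members Igf1, Igfbp4, Igfbp6 and Igfbp7 lie within 2-fold in each panel.

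The rest of the IGF system was described from a list of 16 genes of receptors, binding proteins, proteases and related factors, of which 14 had a probe set and 7 were measured. Pappa, which encodes PAPP-A, the protease that cuts the Igfbp4 and Igfbp5 proteins, had a signal of 116.7 with IL-1β, indomethacin and iloprost, 49.9 with IL-1β and indomethacin, 109.3 with IL-1β and 52.2 with vehicle. It was low on the vehicle and indomethacin arrays and high on the other pair, the reverse of Irs1. Its log2 ratio was 0.84 for IL-1β over vehicle, -0.98 for indomethacin, 1.22 for iloprost added to IL-1β and indomethacin, and 1.07 for all 3 agents over vehicle. Pappa was the only one of the 7 at least 2-fold apart, with 1 higher with iloprost and 0 lower. Among all measured genes 1.98% were higher and 3.19% lower with iloprost. With IL-1β 0 of the 7 passed 2-fold, against 1.72% higher and 0.56% lower among all genes. With indomethacin 0 did, against 0.245% and 0.664%. These 0 counts depend on the scaling, since Pappa stood at 1.07 with IL-1β and -1.13 with indomethacin as deposited. Stc1, chosen after its values were seen, encodes stanniocalcin-1, an inhibitor of PAPP-A, and had 224.1 with iloprost added, 35.9 with IL-1β and indomethacin, 206.3 with IL-1β and 32.7 with vehicle, high on the same arrays as Pappa. The values 35.9 and 32.7 are below the floor. Stc1 was not on the list. Stc2 was, and its probe sets were below the floor on every array, with signals up to 21.5 and 12.3.

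Some of the list's other genes are named after their values were seen. Igf2r, the receptor that clears IGF-II, had 180.8 with iloprost added, 165.3 with IL-1β and indomethacin, 171.2 with IL-1β and 160.8 with vehicle, and its ratios in these comparisons lay between -0.14 and 0.12. Insr, the insulin receptor gene, was below the floor on every array. Igfbp2, another binding protein, was at 0.25 with iloprost, and Ghr, the growth hormone receptor gene, at -0.65 with IL-1β. The probe sets of Ghr differed, since another gave -1.45.

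Downstream of the receptors, 39 genes of insulin and IGF receptor signalling were listed, 33 had a probe set and 28 were measured. None of the 28 was at least 2-fold higher or lower with IL-1β, indomethacin or iloprost, where 2.28%, 0.909% and 5.17% of all measured genes were past 2-fold either way, so a count of 0 among 28 genes is near that background. Their median log2 ratios were 0.04, -0.10 and 0.05. Nearest to 2-fold, and named after their values were seen, were Gab1, a docking protein, at 0.99 with iloprost, and Grb14, an inhibitor of the insulin receptor, at -0.96 with IL-1β. A second Gab1 probe set gave 1.11 with iloprost. Against vehicle, Grb14 was at -1.02 with IL-1β and indomethacin, the 1 of 28 past 2-fold there, but at -0.95 as deposited, under 2-fold.

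Prostacyclin signals through cAMP, so 21 cAMP and CREB targets were set beside the members, of which 14 were measured. IL-1β over vehicle gave 6 at least 2-fold higher and 0 lower, against 1.72% higher and 0.56% lower among all measured genes. Indomethacin left 0 higher and 5 lower, against 0.245% and 0.664%. Adding iloprost gave 4 higher and 2 lower, against 1.98% and 3.19%. The list was chosen with earlier results of these data known, so these counts are no independent test of a cAMP response. The measured targets Per1, Fos, Junb, Dusp1, Rgs2, Cebpb and Cebpd did not reach 2-fold in these comparisons. Crem, a repressor that CREB itself induces, had 375.5 with iloprost added, 90.6 with IL-1β and indomethacin, 232.9 with IL-1β and 68.0 with vehicle. Nfil3, a basic leucine zipper repressor, followed the same course, at 1.495 for IL-1β, -1.75 for indomethacin and 1.60 for iloprost, and so did the nuclear receptor genes Nr4a1, at least 4.35, -3.42 and 2.85, and Nr4a2, at least 1.85, at most -1.93 and at least 1.42. Pde4b, which breaks down cAMP, was at 1.14, -1.38 and 0.94 in that order. Atf3 and Egr1, both early-response factors, were the genes at least 2-fold lower with iloprost, at -2.02 and -1.33. Cebpd (-0.95) and Junb (-0.35) were lower by less than 2-fold, and the other 10 measured targets were above the median gene. Atf3 had 88.2 with iloprost added, 356.5 with IL-1β and indomethacin, 252.4 with IL-1β and 376.0 with vehicle, low on the same pair of arrays as Irs1. No member had the pattern of Crem at 2-fold. Igf1r shares its higher level with IL-1β and its lower one with indomethacin but stood at -0.16 with iloprost. Under 2-fold, Igfbp4 (0.09, -0.16 and 0.42), Igfbp6 (0.01, -0.09 and 0.39) and Igfbp7 (0.22, -0.10 and 0.09) had the signs of Crem throughout. For IL-1β the Igfbp4 and Igfbp6 ratios were within the spread between bright probe sets (0.18). The Igfbp4 probe sets then lay on both sides of 0, and the Igfbp6 ratio changed sign under 3 other processing settings. With indomethacin the Igfbp6 and Igfbp7 ratios were within that spread (0.16), and with iloprost the Igfbp7 ratio was (0.17). Those signs cannot be told from no difference. These lists share their arrays with the members, and no test of likeness was made.

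**Figure D4:**
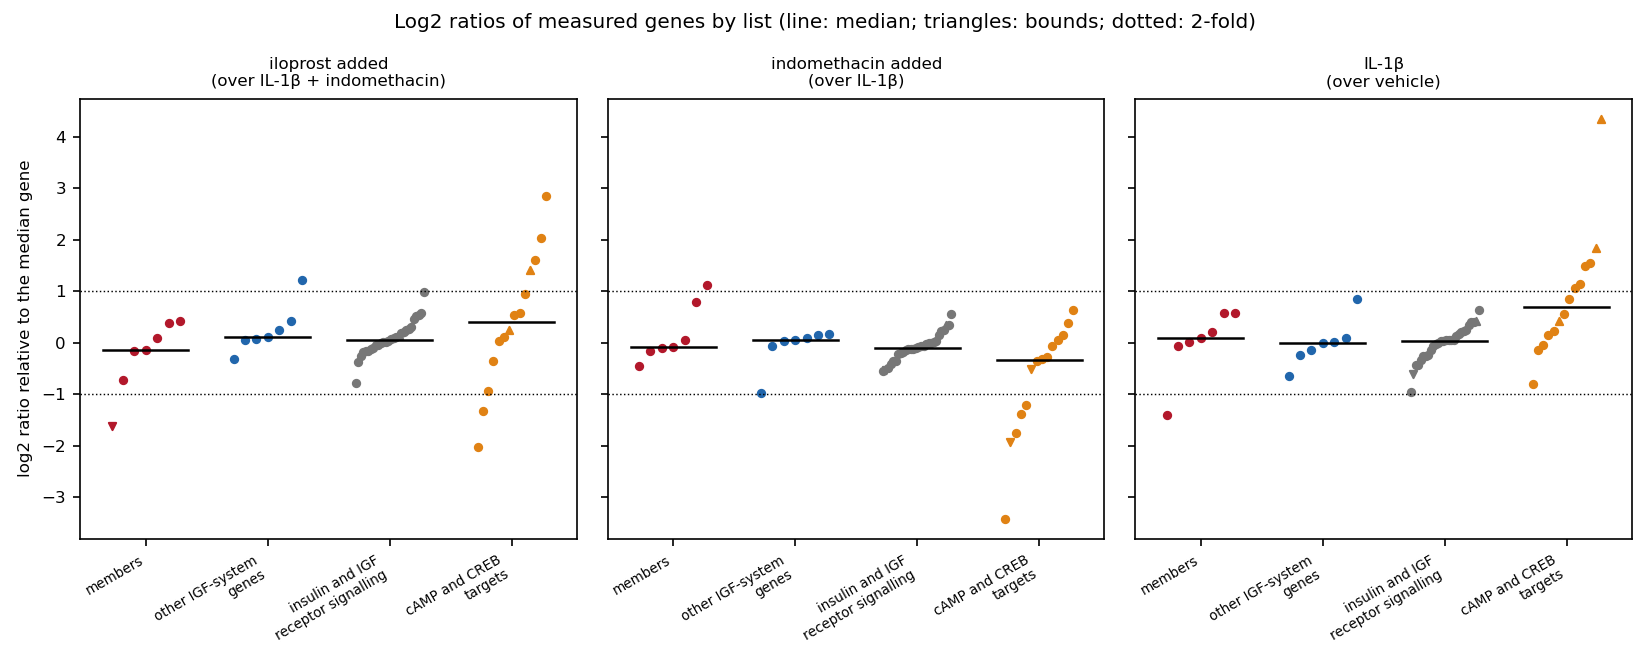
Log2 ratio relative to the median gene (y axis) of each measured gene of 4 lists (members, other IGF-system genes, insulin and IGF receptor signalling, cAMP and CREB targets) for iloprost added to IL-1β and indomethacin, indomethacin added to IL-1β, and IL-1β over vehicle. Points are genes ordered by value, triangles are bounds, short lines are list medians and dotted lines mark 2-fold. The signalling genes stay within 2-fold in all 3 panels, while Crem and other cAMP targets spread beyond it.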

How the data were processed

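Total RNA was labelled and hybridised to Affymetrix arrays by the maker's standard procedure, per the labels. The files as deposited hold an intensity for each probe set, on a linear scale. Which software summarised, background-corrected and scaled it is not given here by any label. The 2% trimmed means of the arrays were 136 (iloprost), 139 (indomethacin), 157 (IL-1β) and 129 (vehicle), so the arrays were not at a common level.

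Of 22690 probe sets, 20380 name 1 gene and are no controls, 691 name several genes and 1606 are unnamed here. RefSeq (GRCm38.p6) changed 0 of the members' symbols by gene number. Signals under the floor were set to it before log2, each gene was read from its brightest probe set by mean log2, and ratios are relative to the median log2 signal of the 6222 genes that lay above it on all arrays. With 1 array at the floor a ratio is a bound, and with both it is not given. A gene counted as higher or lower at 2-fold. The rule for named genes took all members, list genes past 2-fold in the main comparisons (at most 8 per list), the 3 nearest patterns of a member that varied by 2-fold, and Il6 and Ptgs2 (2579, 2547, 3798 and 457 on the iloprost, indomethacin, IL-1β and vehicle arrays). Members and lists were chosen with earlier results of these data known. Smooth muscle and pericyte markers were above the floor on every array for 2 of 10. The script was tested on simulated data with large changes in bright genes only. That test does not cover dim genes such as Irs1, Igfbp3 and Igf1r. Analyses used Python 3.11.15, numpy 2.4.6 and pandas 2.3.3. The number of arrays limits the precision.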

Additional observations from a re-analysis of the deposited data

How the results depend on the processing

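With 1 array per treatment no replicate could be left out, and all values describe 4 arrays. Counts of members past 2-fold were repeated under other settings. As reported they were 1 for IL-1β over vehicle, 1 for indomethacin with IL-1β over IL-1β, 1 for iloprost added to both, 0 for all agents over IL-1β, 1 for IL-1β with indomethacin over vehicle and 0 for all agents over vehicle. With values as deposited the indomethacin count was 0, since Irs1 stood at 0.98. With quantile normalization the count for all agents over vehicle was 1, Irs1. With the floor at the 35th percentile it was 1 as well (Irs1), and all agents over IL-1β gave 1 (Igfbp3). With the floor at the 65th percentile, a signal of 87.0, which lies above 5 of the 8 Irs1 and Igfbp3 signals, the counts for IL-1β, indomethacin, iloprost, and IL-1β with indomethacin over vehicle were all 0. The highest signals, 111.3 for Irs1 and 115.2 for Igfbp3, are less than 2-fold above that floor. Neither gene could therefore pass 2-fold under this setting. With log2 of the signal plus 16 and no floor, the indomethacin count was 0 and all agents over IL-1β gave 1 (Igf2, from signals below the floor). At 1.5-fold the counts were 2 for indomethacin, 2 for iloprost, 2 for all agents over IL-1β and 1 for all agents over vehicle. In the same order, 3.996%, 15.02%, 11.02% and 15.27% of all measured genes were past 1.5-fold either way. With 7 members measured, the counts for iloprost and for all agents over vehicle are near that background. The 2% trimmed mean and the median over a gene's probe sets changed none of the 6 counts.

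Of 284 single-gene ratios under the alternatives other than 1.5-fold, 262 moved by less than the spread between probe sets, 22 by more, and 0 that had passed 2-fold changed sign. Irs1 ran from -1.46 to -0.61 with IL-1β and from 0.31 to 1.16 with indomethacin, and Igfbp3 from -1.90 to -0.38 with iloprost. The smallest sizes came with the higher floor and are bounds, because the lower array of each pair was set to it. Across all genes, as deposited, 94.7% of genes past 2-fold with IL-1β were higher against 75.5% relative to the median gene, 13.0% against 27.0% with indomethacin, and 16.7% against 28.6% for all agents over IL-1β. With the higher floor 95.5% were higher for IL-1β with indomethacin over vehicle, against 80.4%. Genes past 2-fold, in the order of comparisons above, numbered 159, 63, 361, 234, 112 and 423, with the lower floor 288, 146, 552, 377, 227 and 604, with the higher floor 97, 40, 248, 155, 67 and 288, and past 1.5-fold 593, 277, 1049, 777, 430 and 1066. Dim signals limit Irs1, Igfbp3 and Igf1r.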
